A study of Homo sapiens with 6 samples.

Results

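TCN1 and 8 other genes of vitamin B12 handling (TCN2, CD320, LMBRD1, MMACHC, MMADHC, MMUT, MTR and MTRR) were followed in A549 cells with and without a guide against UXS1. The 9 genes were picked by symbol from the 28317 genes of the deposited tables, and each matched 1 row. TCN1 was picked because its transcript was much higher in the UXS1 KO libraries, so its values below are a description with no test. The other 8 were picked for their known place in the pathway, with earlier results of these data known. Their tests come from the fit over all genes, which does not adjust for that choice. A549 is an established human lung adenocarcinoma cell line. The UXS1 KO group (3 libraries) was infected with the lentiviral vector lentiCRISPR v2 carrying the guide UXS1 g1, and the CTRL group (3 libraries) with the same vector carrying a non-targeting guide. Both groups thus carried the Cas9 vector, had 5 days of puromycin selection, and were harvested for RNA at day 7 from the infection, grown in DMEM with 10% fetal bovine serum and 2 mM glutamine. The labels name a single guide against UXS1 and no clonal line, and the series describes the libraries as biological triplicates without saying whether infections were separate, so p values speak of the spread of these cultures only.

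Vitamin B12 (cobalamin) is carried outside cells by binding proteins and is taken up, released from lysosomes and converted inside cells. TCN1 (haptocorrin) is a secreted binder found in saliva, in mucosal secretions and in neutrophil granules, while TCN2 (transcobalamin) is the plasma carrier that delivers the vitamin to the receptor CD320. The lysosomal membrane proteins LMBRD1 and ABCD4 let it out into the cytosol, where MMACHC strips its upper ligand and MMADHC directs it to its users. Human cells have 2 such users. MTR (methionine synthase, kept active by its reductase MTRR) makes methionine from homocysteine in the cytosol with a methyl group from folate, and MMUT (methylmalonyl-CoA mutase) turns methylmalonyl-CoA into succinyl-CoA in mitochondria. UXS1 converts UDP-glucuronic acid to UDP-xylose and is not a gene of this pathway.

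A log2 fold change here is UXS1 KO minus CTRL from edgeR, a call is an edgeR adjusted p under 0.05 over the 15757 genes tested, and levels of different genes are compared in TPM, an abundance scaled by gene length. UXS1 was at 17.1 ± 0.192 TPM in UXS1 KO libraries and 31.7 ± 0.737 TPM in CTRL libraries (mean ± SD, n = 3 each), a log2 fold change of -0.89 (standard error 0.0475, edgeR adjusted p = 2.2e-14). Total counts per library ran from 21121489 to 22160405. The epithelial keratins KRT8 (7637 CPM in UXS1 KO and 7440 CPM in CTRL) and KRT18 (3948 and 3950 CPM in the same order) were abundant in both groups. They were the 2 of the 8 genes of lung epithelial identity without a call, while 5 rose and 1 fell, beside 24.5% called higher and 23.7% called lower among all genes. KRT7 fell by 0.69 on the log2 scale (edgeR adjusted p = 5.2e-15), whereas the adhesion gene CDH1 rose by 0.86 (3.3e-14), KRT19 by 0.55 (6.5e-12) and AKR1C1 by 0.47 (1.0e-08). The T cell gene CD3E had no count in any library. Of 10 listed markers of other lineages, 7 had a row and COL1A1 alone passed the low-count filter, at 14.8 CPM in UXS1 KO and 14.2 CPM in CTRL (edgeR adjusted p = 0.522). RNA came from whole cultures, so more cells expressing a gene and more RNA per cell cannot be told apart.

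The 2 carriers of the vitamin were the members with the highest log2 fold changes. TCN1 (ENSG00000134827.8, a protein-coding gene of 9 exon blocks on the minus strand of GRCh38 chromosome 11, positions 59852800 to 59866575) had 419, 445 and 436 counts in UXS1 KO libraries, against 62, 71 and 85 counts in CTRL libraries. In TPM it stood at 45.9, 48.0 and 45.9 in UXS1 KO and at 6.69, 7.45 and 9.42 in CTRL. Every UXS1 KO library lay above every CTRL library, and the UXS1 KO libraries were close to each other while CTRL replicate 3 was the highest of its group. The means were 46.6 ± 1.21 TPM in UXS1 KO and 7.85 ± 1.41 TPM in CTRL (SD, n = 3 each), a fitted log2 fold change of 2.57, the rank 43 from the top among the 15757 genes tested. Its exons overlap no other gene of GENCODE 29.

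The 300 bases around the annotated TCN1 start are shown because this is the member with the steepest difference, and those of MMACHC and MTR because they share a motif. They run from 250 bases before to 50 after a RefSeq start, 5′ to 3′ on the gene's strand, and come from RefSeq on GRCh38.p14, at chr11:59866438-59866737 (minus strand), chr1:45500050-45500349 (plus strand) and chr1:236795031-236795330 (plus strand). Capitals mark the motif matches named in the next paragraph.
TCN1: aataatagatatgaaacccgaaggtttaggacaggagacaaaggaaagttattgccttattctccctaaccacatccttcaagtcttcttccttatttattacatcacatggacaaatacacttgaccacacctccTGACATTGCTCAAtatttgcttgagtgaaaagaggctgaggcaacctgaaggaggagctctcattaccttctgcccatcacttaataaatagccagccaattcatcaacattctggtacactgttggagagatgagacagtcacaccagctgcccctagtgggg
MMACHC: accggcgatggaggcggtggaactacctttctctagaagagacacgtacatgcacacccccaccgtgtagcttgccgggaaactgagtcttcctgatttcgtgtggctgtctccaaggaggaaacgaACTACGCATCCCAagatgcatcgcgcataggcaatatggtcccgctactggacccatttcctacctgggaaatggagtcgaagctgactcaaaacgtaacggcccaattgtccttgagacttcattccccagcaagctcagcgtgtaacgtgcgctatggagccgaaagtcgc
MTR: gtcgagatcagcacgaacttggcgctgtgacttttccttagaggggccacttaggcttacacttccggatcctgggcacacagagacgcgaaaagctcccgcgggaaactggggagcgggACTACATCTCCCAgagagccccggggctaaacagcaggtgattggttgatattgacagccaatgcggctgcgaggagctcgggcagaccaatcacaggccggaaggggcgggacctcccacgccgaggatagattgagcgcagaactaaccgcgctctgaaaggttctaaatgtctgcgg

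The capitals in the TCN1 promoter are a pair of overlapping matches, TTGCNNAA, a C/EBP-type motif, from position -109, and TGACNNNGC, the core of the antioxidant response element, from position -114. On either strand TTGCNNAA occurs in 10.5% and TGACNNNGC in 13.3% of the 35116 promoters of 300 bases in the same table, so such matches are common. The capitals in the MMACHC and MTR promoters are ACTAC and TCCCA with any 3 bases between, the core of the element that ZNF143 and THAP11 bind, from position -123 in MMACHC and -130 in MTR. It occurs in 1.67% of the 35116 promoters. Promoters were matched for 7 of the 9 members (TCN2 and MTRR had none), in 9 entries, and of the 4 matched members not printed here LMBRD1 has a TTGCNNAA match, in 1 of its 2 entries. TATAAA (the TATA box), CACGTG (an E-box) and TTCNNNGAA (a STAT-type motif) had no match on either strand in any of the 9 entries, and TGANTCA (an AP-1-type motif) had 1, in MMACHC, left in lower case. The motifs were chosen with the sequences in view, and a match is a match of letters, not a shown binding site.

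TCN2 (ENSG00000185339.9, chromosome 22, positions 30606838 to 30627278, plus strand), the carrier that feeds the receptor, rose too. It had 673, 650 and 674 counts in UXS1 KO libraries and 358, 373 and 310 counts in CTRL libraries, with no overlap between the groups. In TPM the levels were 36.4 ± 0.950 in UXS1 KO and 19.0 ± 1.33 in CTRL (SD, n = 3 each), a log2 fold change of 0.94 (standard error 0.0648, edgeR adjusted p = 3.6e-12). Its exons share 7.88% of their length with PES1 on the opposite strand, and PES1 fell (log2 fold change -0.22, edgeR adjusted p = 7.6e-05). The part of PES1 reads in the TCN2 counts was not tested. With TCN2 rising and TCN1 higher still, their order changed between the groups. TCN1 made up 55.0%, 57.4% and 56.0% of the summed TCN1 and TCN2 TPM in UXS1 KO libraries and 25.4%, 27.2% and 35.0% in CTRL libraries. The sum itself was 83.0 ± 0.860 TPM in UXS1 KO and 26.9 ± 0.506 TPM in CTRL (SD, n = 3 each). These sums and shares contain TCN1 and carry no test.

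**Figure D1:**
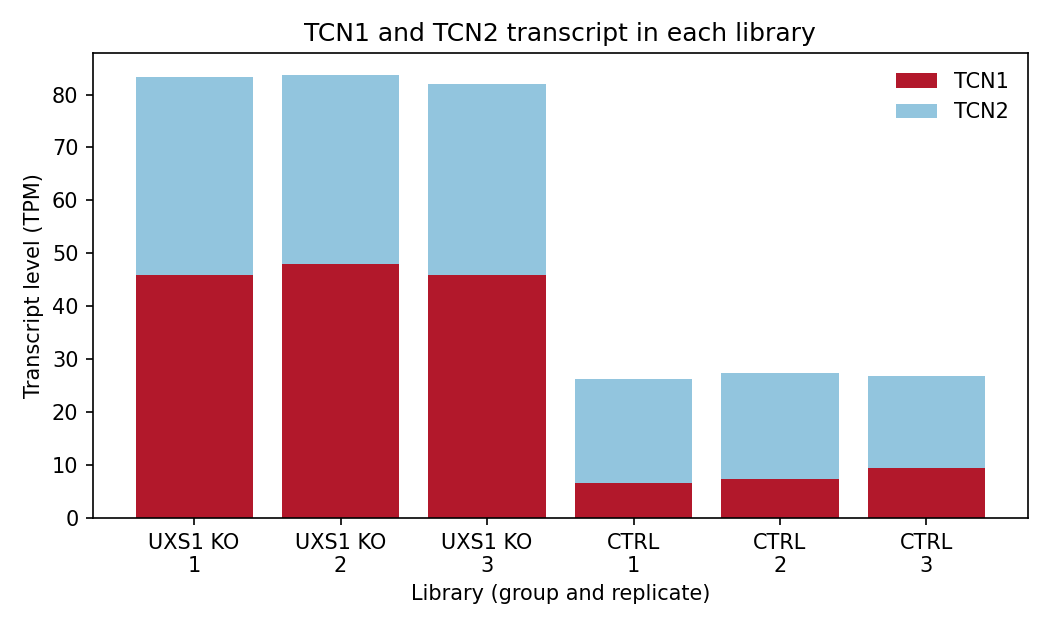
Stacked bars give the transcript level in TPM of TCN1 (lower part) and TCN2 (upper part) in each of the 3 UXS1 KO and 3 CTRL libraries. In TPM, which is scaled by gene length, the TCN1 part exceeds the TCN2 part in each UXS1 KO library and is the smaller part in each CTRL library.

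Of the 8 members other than TCN1, all of which passed the low-count filter, 3 rose (TCN2, LMBRD1 and MMUT), 2 fell (CD320 and MMADHC) and 3 were not called (MMACHC, MTR and MTRR). Among all 15757 genes tested 24.5% were called higher and 23.7% lower, against 37.5% and 25.0% of these 8. The libraries of the groups did not overlap, with UXS1 KO higher, in 4 of the 8 (TCN2, LMBRD1, MMACHC and MMUT), beside 27.5% of all genes, and with UXS1 KO lower in 1 (MMADHC), beside 26.9%. In either direction 48.2% of all genes were called, so a call by itself is common in this comparison. The median log2 fold change of the 8 was 0.08, beside -0.0030 for all genes tested.

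**Figure D2:**
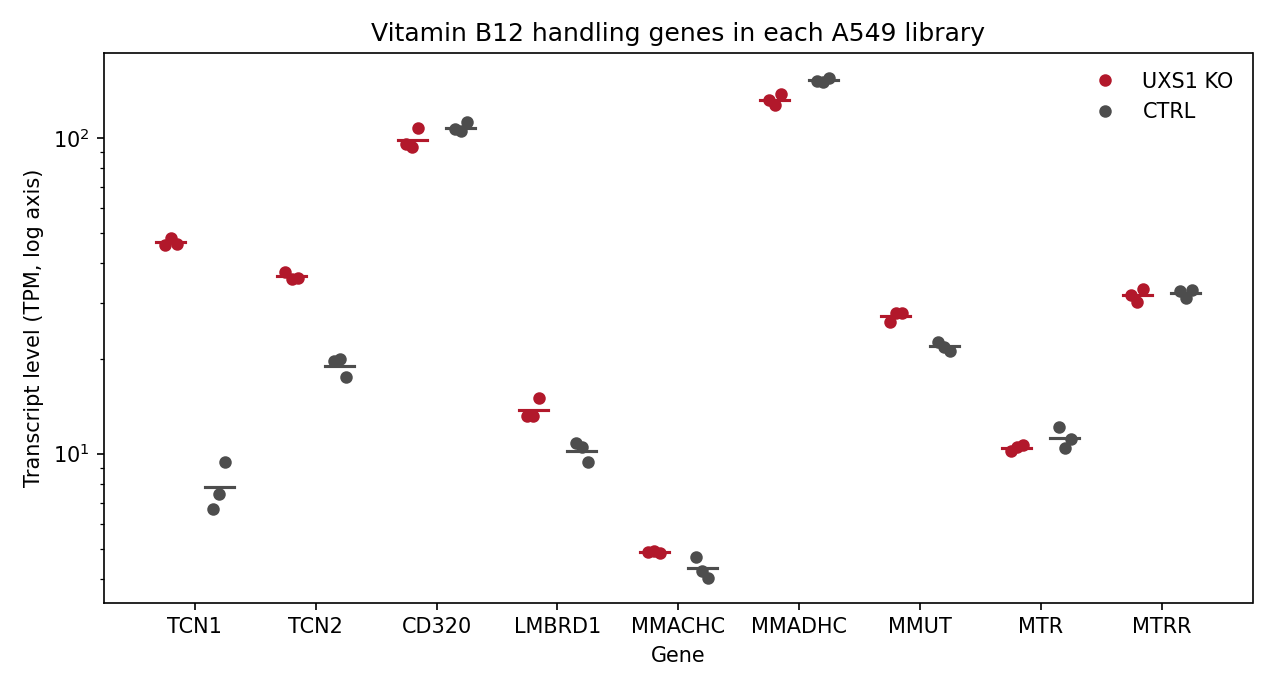
Each point is 1 library, with the TPM on a log axis, UXS1 KO (red) left of CTRL (grey) for each of the 9 genes, and short bars give group means (n = 3 each). TCN1, TCN2, LMBRD1, MMACHC and MMUT are higher in each UXS1 KO library than in any CTRL library, MMADHC is lower, and the points of CD320, MTR and MTRR overlap.

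CD320 (ENSG00000167775.11, chromosome 19, positions 8302127 to 8308356, minus strand), the cell-surface receptor for vitamin-loaded TCN2, was one of the most abundant members and differed little. Its levels were 95.4, 93.6 and 107.0 TPM in UXS1 KO libraries and 106.3, 104.8 and 112.2 TPM in CTRL libraries. UXS1 KO replicate 3 lay among the CTRL libraries, so the groups overlapped. The log2 fold change was -0.12 (standard error 0.0470, edgeR adjusted p = 0.0305), with a 95% interval from -0.22 to -0.03. The call was lost without UXS1 KO replicate 1 (edgeR adjusted p = 0.147), UXS1 KO replicate 2 (0.160) or CTRL replicate 3 (0.131), and with DESeq2 (0.0740).

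Other genes of vitamin uptake and transport differed widely in level. CUBN and LRP2, endocytic receptors of the gut and kidney, had at most 10 and 6 counts per library and were not tested. AMN, the membrane anchor of CUBN, had 29, 31 and 38 counts in UXS1 KO libraries and 13, 14 and 21 counts in CTRL libraries, a log2 fold change of 1.02 (standard error 0.26, edgeR adjusted p = 0.00195). ASGR1, a subunit of the asialoglycoprotein receptor that clears haptocorrin in the liver, had 18, 23 and 19 counts in UXS1 KO and 5, 3 and 6 counts in CTRL, and passed the filter through the UXS1 KO libraries only, so it is described with no test. The endocytic receptor LRP1 rose to 116 ± 5.16 CPM in UXS1 KO, against 76.5 ± 9.41 CPM in CTRL (SD, n = 3 each; log2 fold change 0.60, standard error 0.0565, edgeR adjusted p = 1.5e-09). ABCC1, an exporter reported to carry the vitamin out of cells, stood at 529 CPM in UXS1 KO and 528 CPM in CTRL, with an interval from -0.07 to 0.07 for its log2 fold change. RAP1A was also on the list, though no role in vitamin B12 uptake is given for it here. It was not called either (28.9 CPM in UXS1 KO and 27.7 CPM in CTRL). Of the 8 genes on this list, 7 had a row and 5 passed the filter. Besides ASGR1, 2 rose (AMN and LRP1) and none fell, beside 24.5% and 23.7% of all genes. CBLIF (intrinsic factor) was not analysed here.

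At the lysosome the transcripts of both exit proteins rose. LMBRD1 (ENSG00000168216.13, chromosome 6, positions 69675793 to 69867236, minus strand) had 13.2, 13.1 and 14.96 TPM in UXS1 KO libraries and 10.8, 10.5 and 9.39 TPM in CTRL libraries, without overlap. Its log2 fold change was 0.43 (standard error 0.0586, edgeR adjusted p = 8.6e-07). ABCD4, the transporter that works with LMBRD1, had 823, 811 and 841 counts in UXS1 KO and 715, 698 and 636 counts in CTRL. It rose by 0.27 on the log2 scale (standard error 0.0522, edgeR adjusted p = 1.0e-04).

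The pair of cytosolic processing genes did not move together. MMACHC (ENSG00000132763.15, chromosome 1, positions 45500053 to 45513382, plus strand), the decyanase and dealkylase, was the least abundant member, at 4.88, 4.94 and 4.85 TPM in UXS1 KO libraries and 4.71, 4.24 and 4.05 TPM in CTRL libraries. The groups did not overlap, but the log2 fold change of 0.18 (standard error 0.105) was not called (edgeR adjusted p = 0.175), with an interval from -0.03 to 0.38. MMADHC (ENSG00000168288.13, chromosome 2, positions 149569634 to 149587816, minus strand), which steers the vitamin to the cytosolic or the mitochondrial user, was the most abundant member, at 131, 127 and 137 TPM in UXS1 KO and 152, 150 and 155 TPM in CTRL. It fell, with a log2 fold change of -0.20 (standard error 0.0400, edgeR adjusted p = 1.3e-04) and no overlap between libraries. MMADHC shares 25.6% of its exonic length with the gene AC007364.1 on the opposite strand, and MMACHC shares 7.67% with CCDC163 and PRDX1. PRDX1 stood at 804 CPM in UXS1 KO and 874 CPM in CTRL, MMACHC at 7.09 and 6.27 CPM in the same order. MTRR shares 6.23% with C5orf49 and FASTKD3 on the opposite strand. CD320 shares 3.25% with AC010323.1 on the same strand. LMBRD1 shares 1.35% with NPM1P37 on the same strand and 0.796% with COL19A1 on the opposite strand. No source used here says that counting used strand, so reads of such pairs cannot be told apart. The ratio of MMADHC to MMACHC in TPM was 27.0 ± 1.27 in UXS1 KO and 35.3 ± 2.99 in CTRL (SD, n = 3 each).

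Human MMACHC transcription is known to depend on HCFC1 with THAP11 and ZNF143, whose shared motif is printed above for MMACHC and MTR. ZNF143 fell to 14.2 ± 0.750 CPM in UXS1 KO, against 16.97 ± 1.24 CPM in CTRL (SD, n = 3 each; log2 fold change -0.26, standard error 0.0762, edgeR adjusted p = 0.00689). HCFC1 fell by 0.12 on the log2 scale (standard error 0.0376, edgeR adjusted p = 0.0112), and THAP11 had a log2 fold change of -0.06 (edgeR adjusted p = 0.311). Neither MMACHC nor MTR was called. PRDX1, a peroxiredoxin gene next to MMACHC on the opposite strand, fell by 0.12 on the log2 scale (edgeR adjusted p = 0.00712).

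**Figure D3:**
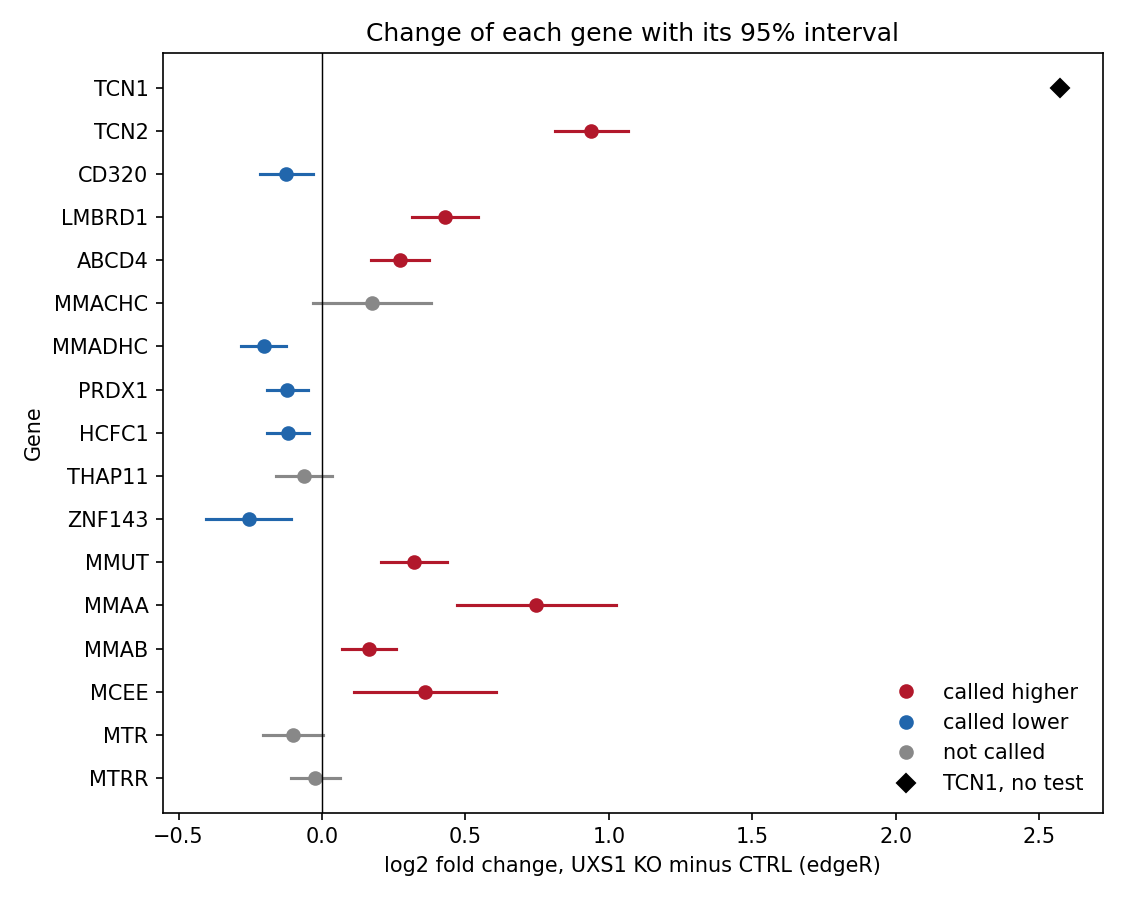
Points give the edgeR log2 fold change (UXS1 KO minus CTRL, n = 3 each) and lines the 95% interval of 1.96 standard errors, for the members and 8 other genes of the pathway, ordered by role. TCN1 is a diamond without interval because it was chosen on this difference. The genes of lysosomal exit and of the mitochondrial branch lie right of 0, and the regulators of MMACHC lie left of 0, with the THAP11 interval crossing it.

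The mitochondrial user and the genes that serve it rose. MMUT (ENSG00000146085.8, chromosome 6, positions 49430360 to 49463191, minus strand) was at 26.0, 27.9 and 27.8 TPM in UXS1 KO libraries and 22.5, 21.8 and 21.2 TPM in CTRL libraries, with no overlap. The log2 fold change was 0.32 (standard error 0.0582, edgeR adjusted p = 5.2e-05). MMAA, the chaperone that protects MMUT, had 108, 107 and 118 counts in UXS1 KO and 78, 68 and 52 counts in CTRL and rose by 0.75 on the log2 scale (standard error 0.141, edgeR adjusted p = 8.2e-05). MMAB, which makes the adenosyl form that MMUT uses, rose by 0.16 (standard error 0.0482, edgeR adjusted p = 0.00666), and MCEE, the epimerase that supplies its substrate, by 0.36 (standard error 0.126, edgeR adjusted p = 0.0201). CLYBL, a mitochondrial citramalyl-CoA lyase whose loss is linked to low vitamin B12, rose by 0.58 (standard error 0.163, edgeR adjusted p = 0.00472). Over the list of lysosomal exit, the adenosyl branch and transcription control, 9 of 9 genes were tested, 5 rose and 3 fell, beside 24.5% and 23.7% of all genes, and the median log2 fold change was 0.16.

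Around MMUT, 16 of 16 listed genes of the propionate and methylmalonate route were tested, 8 rose and none fell, beside 24.5% called higher among all genes. The list includes genes that act after MMUT, and MCEE, which is counted in the list above too. PCCA, a subunit of propionyl-CoA carboxylase, rose to 23.9 ± 0.953 CPM in UXS1 KO, against 16.99 ± 0.706 CPM in CTRL (SD, n = 3 each; log2 fold change 0.49, standard error 0.0654, edgeR adjusted p = 5.5e-07). ALDH6A1, which makes propionyl-CoA from a valine breakdown product, rose by 0.46, BCKDHB, of the branched-chain keto acid dehydrogenase, by 0.28, and HIBADH, of valine breakdown, by 0.19. The median of the list was 0.13. With DESeq2 5 of the 16 were called higher, and without UXS1 KO replicate 2 likewise 5.

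The cytosolic user was not called. MTR (ENSG00000116984.13, chromosome 1, positions 236795281 to 236903981, plus strand) was at 10.2, 10.5 and 10.6 TPM in UXS1 KO libraries and 12.1, 10.4 and 11.2 TPM in CTRL libraries. The groups overlapped, with CTRL replicate 2 among the UXS1 KO libraries. The log2 fold change was -0.10 (standard error 0.0528, edgeR adjusted p = 0.117), with an interval from -0.21 to 0.00184, and without CTRL replicate 2 it was called lower (edgeR adjusted p = 0.0450). MTRR (ENSG00000124275.15, chromosome 5, positions 7851186 to 7906025, plus strand) was at 31.8, 30.2 and 33.1 TPM in UXS1 KO and 32.7, 31.1 and 33.0 TPM in CTRL. Its log2 fold change was -0.02 (standard error 0.0440, edgeR adjusted p = 0.692), with an interval from -0.11 to 0.06. The ratio of MTRR to MTR was 3.04 ± 0.140 in UXS1 KO and 2.88 ± 0.162 in CTRL (SD, n = 3 each, from TPM).

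The transcript level of MTR was set against that of MMUT. Their ratio in TPM was 0.392, 0.377 and 0.381 in UXS1 KO libraries and 0.539, 0.477 and 0.526 in CTRL libraries. The log2 difference was -0.42, with no overlap, and an exact two-sided permutation test gave p = 0.1, which is the lowest p possible with 3 libraries in each group.

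Around MTR, genes of the folate cycle fell or were not called. Of 30 folate genes 29 had a row and 24 were tested, of which none rose (1 rose with upper-quartile scaling) and 10 fell, which is 41.7% lower beside 23.7% for all genes. MTHFD1L, which makes formate in mitochondria, fell to 37.6 ± 1.31 CPM in UXS1 KO, against 52.6 ± 1.86 CPM in CTRL (SD, n = 3 each; log2 fold change -0.48, standard error 0.0492, edgeR adjusted p = 6.1e-09). Thymidylate synthase TYMS had a log2 fold change of -0.44 and the trifunctional enzyme MTHFD1 of -0.33. TYMS is also a gene of DNA synthesis. The median of the tested folate genes was -0.05.

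On the methionine side, 17 of 19 listed genes had a row and 16 passed the filter, MAT1A and GNMT through the UXS1 KO libraries only. Besides these, 2 rose (AHCYL2 and CTH) and 6 fell, beside 24.5% and 23.7% of all genes. The methionine-forming alternatives BHMT and BHMT2 were not analysed here. AHCYL2, a relative of the hydrolase that makes homocysteine, rose to 45.0 ± 1.84 CPM in UXS1 KO, against 34.7 ± 1.13 CPM in CTRL (SD, n = 3 each; log2 fold change 0.37, standard error 0.0514, edgeR adjusted p = 1.1e-06). ENOPH1, of methionine salvage, had a log2 fold change of -0.22 (standard error 0.0511, edgeR adjusted p = 7.7e-04). AHCY, the hydrolase itself, named after its value was seen, fell by 0.13 on the log2 scale (standard error 0.0345, edgeR adjusted p = 0.00325). SRM and SMS, which make spermidine and spermine, fell by 0.32 and 0.27.

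**Figure D4:**
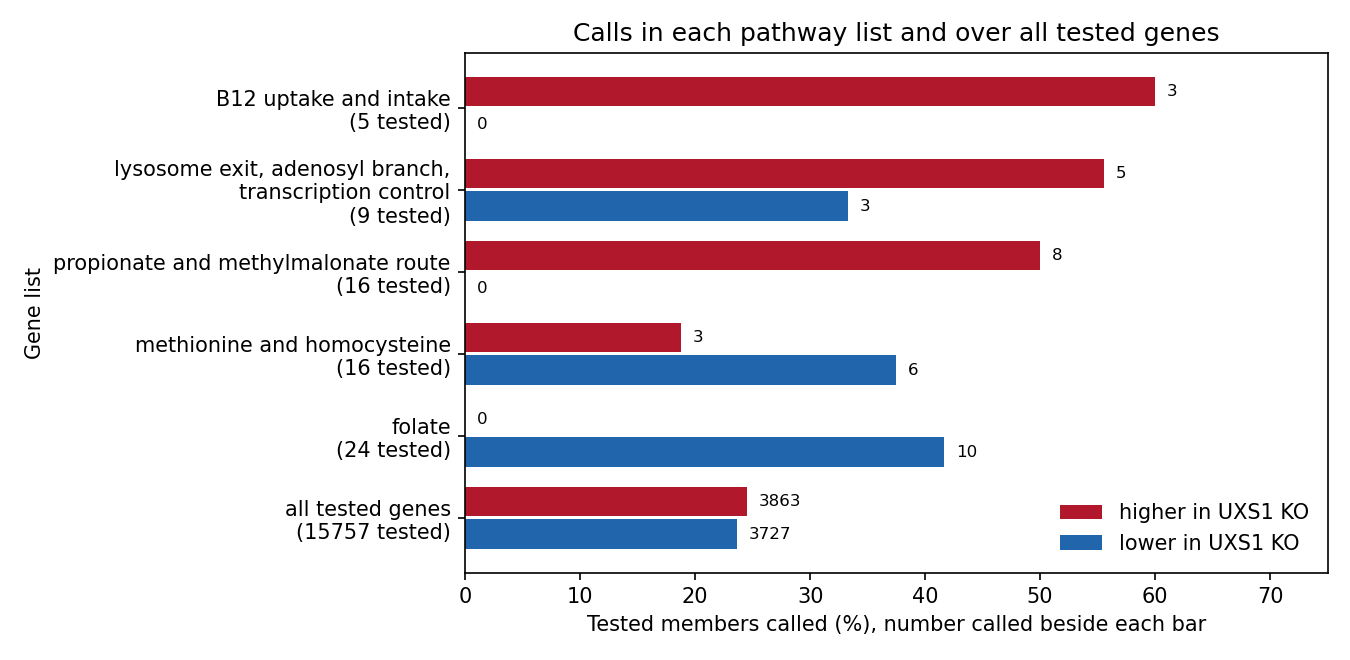
Bars give the percentage of tested members called higher (red) or lower (blue) in UXS1 KO against CTRL for 5 gene lists, with the same for all 15757 genes tested at the bottom, and the number beside each bar is the count of genes. The upward counts include ASGR1 (uptake) and MAT1A (methionine), which passed the filter through the UXS1 KO libraries only. The uptake, propionate and folate lists each have calls in 1 direction, upward for uptake, upward for propionate with 8 and downward for folate with 10. The uptake, propionate and folate counts change in some of the alternatives.

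By TPM, the order of the 9 members in UXS1 KO libraries was MMADHC, CD320, TCN1, TCN2, MTRR, MMUT, LMBRD1, MTR and MMACHC, and the libraries of neighbours in this order did not overlap. Such an order also rests on the single length by which TPM divides each gene, and other lengths were not tried. In CTRL libraries it was MMADHC, CD320, MTRR, MMUT, TCN2, MTR, LMBRD1, TCN1 and MMACHC. There MTR (11.2 ± 0.859 TPM) overlapped LMBRD1 (10.2 ± 0.728 TPM), and LMBRD1 overlapped TCN1 (7.85 ± 1.41 TPM; SD, n = 3 each). TCN1 thus stood at the rank of 3 in UXS1 KO and of 8 in CTRL, and MMADHC, CD320 and MMACHC held the same ranks in both. Because TCN1 was picked for its difference, its change of rank is a description with no test.

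Genes next to TCN1 on chromosome 11 were compared with it. GENCODE 29 places 11 other protein-coding genes with a start within 200 kb of that of TCN1, of which PATL1, STX3 and MRPL16 had rows, and the other 8 were not analysed here. STX3, a membrane fusion protein gene 153 kb away, rose by 0.34 on the log2 scale (standard error 0.0582, edgeR adjusted p = 2.4e-05). PATL1, an RNA decay factor gene 198 kb away, fell by 0.16 (standard error 0.0413, edgeR adjusted p = 0.00223). MRPL16, a mitochondrial ribosomal protein gene and the nearest of the measured genes at 55.7 kb, was not called (log2 fold change -0.09, edgeR adjusted p = 0.184).

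Haptocorrin is a product of mucosal secretory cells and of neutrophils, so markers of both were read beside TCN1. Of 22 secretory markers 19 had a row and 12 passed the filter, LYZ through the UXS1 KO libraries only, and the other 11 rose, beside 24.5% of all genes. The summed level of the list ran from 1223 to 1292 CPM in UXS1 KO and from 594 to 641 CPM in CTRL. AGR2, a disulfide isomerase for mucins, rose to 486 ± 17.8 CPM in UXS1 KO, against 200 ± 12.3 CPM in CTRL (SD, n = 3 each; log2 fold change 1.28, standard error 0.0415, edgeR adjusted p = 7.8e-19). The protease inhibitor SLPI rose by 1.63, the iron-siderophore binder LCN2 by 1.62 and the adhesion protein CEACAM6 by 0.71. The club cell genes SCGB1A1, SCGB3A1 and SCGB3A2 were not analysed here, and LTF had no count in any library. The part of these genes in the TCN1 difference was not tested.

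Of 23 neutrophil granule markers 15 had a row and 5 passed the filter, CRISP3 and ELANE through the UXS1 KO libraries only. The other 3 rose, beside 24.5% of all genes. With no filter on low values 7 of 11 were called higher, beside 3902 of 26911 genes. These 11 include CRISP3 and ELANE, so that count is a description only. With a mean of at least 5 CPM LCN2 alone was tested and rose. The list summed to 52.5 to 61.9 CPM in UXS1 KO and 18.96 to 21.9 CPM in CTRL, most of it LCN2, which is on both lists (49.0 ± 4.46 CPM in UXS1 KO and 15.97 ± 1.79 CPM in CTRL; SD, n = 3 each). CRISP3 was at 1.15 CPM in UXS1 KO and 0.185 CPM in CTRL, PRTN3 at 2.38 and 1.45 CPM and ELANE at 0.757 and 0.310 CPM in the same order. The granule genes LTF, MMP8, BPI and CHI3L1 had no count in any library.

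Genes averaging 1 CPM or more were ranked by likeness to TCN1, with clone, LINC and LOC type symbols left out, which left 13179. The 8 whose log2 CPM profile over the 6 libraries lay closest were C4BPA, GALNTL6, ADGRV1, SERPINA6, SPTLC3, CDH16, IFI44 and LRG1. The measure was the root mean square difference of the centred log2 CPM, which ran from 0.140 for C4BPA to 0.194 for LRG1. The log2 CPM used a prior count of 2, which shrinks differences of genes with low counts. C4BPA, a chain of the complement inhibitor C4b-binding protein, was at 23.9 CPM in UXS1 KO and 4.19 CPM in CTRL, beside 20.1 and 3.38 CPM for TCN1. SERPINA6, the corticosteroid-binding globulin, was at 19.3 CPM in UXS1 KO and 2.78 CPM in CTRL, and the cadherin CDH16 at 17.98 and 2.66 CPM in the same order. The other 5 were below 6 CPM in UXS1 KO. By Pearson correlation 278 genes had r over 0.99 with TCN1, since the 6 libraries share a single split into groups, and of the first 8 by that measure only LRG1 was among the 8 above.

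**Figure D5:**
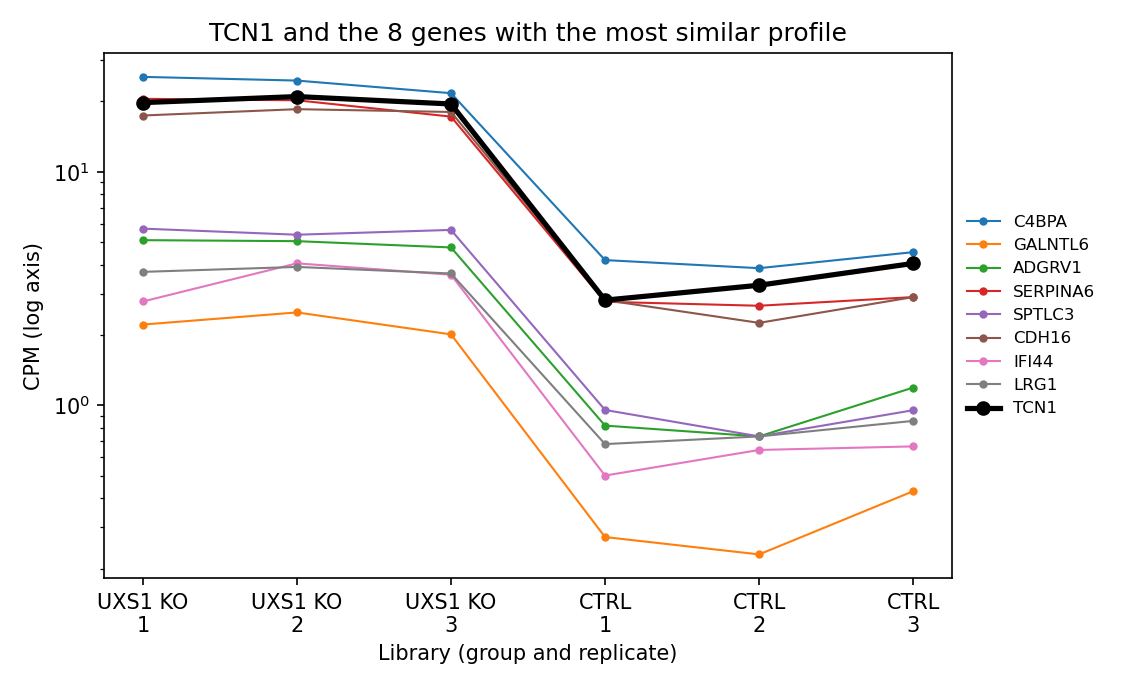
Lines give the CPM (log axis) of TCN1 (black) and of the 8 genes closest to it in the 3 UXS1 KO and 3 CTRL libraries. Each of the 9 genes is higher in every UXS1 KO library than in any CTRL library, beside 27.5% of all genes tested. That separation is part of how they were chosen and is not a result. C4BPA, SERPINA6 and CDH16 are also near TCN1 in level.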

How the data were processed

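The 6 A549 libraries were grouped and numbered by their titles. STAR, featureCounts, DESeq2 and the hg38 build are named in the submitters' processing notes, while no version, strand setting or annotation release was found in the labels or headers. The deposited table of counts holds whole numbers for each gene, as its headers name them. The TPM table deposited by the authors sums to 1000000 per library. In each of the 14605 genes checked, counts and TPM fitted a single gene length over the 6 libraries. Low genes were removed by filterByExpr of edgeR (minimum count 10), leaving 15757 of 28317, which were scaled with TMM (factors 0.987 to 1.01). Testing used the quasi-likelihood F test of edgeR 4.0.16 in R 4.3.3, two-sided, group as the only term, with Benjamini-Hochberg adjustment over all genes tested. The standard error is the log2 fold change over the square root of F. CPM values use the TMM factors, and 1 CPM stands for 21.1 to 22.2 counts. Positions and overlaps are from GENCODE 29 on GRCh38, the assembly hg38 names, matched by gene identifier.

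The members and the 9 gene lists (145 entries) were chosen with earlier results of these data known. The text names the members, UXS1, the first 2 lists in full, the 4 tested genes with the smallest adjusted p of each other list, the 8 genes closest to TCN1 and its neighbours within 200 kb; AHCY, CTH, the genes of methionine salvage, KRT8, KRT18 and single genes given as examples of markers were named after their values were seen. A result that falls under this rule is not reported here. The fit was tested on simulated data with known fold changes. Within a group, pairs of libraries differed beyond sampling noise (chi-square from 1.60 to 3.39 per degree of freedom), and each library counts once. The alternatives tried were limma-voom (limma 3.58.1), DESeq2 1.42.0, other scalings, filters and dispersion settings, leaving out single libraries, a replicate block, and log2(TPM + 1) or log2(TPM + 0.1) with limma-trend.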

Additional observations from a re-analysis of the deposited data

How the results depend on the processing

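Over 18 alternatives the log2 fold change of TCN1 ran from 2.44 to 2.72, that of TCN2 from 0.88 to 0.99, LMBRD1 from 0.37 to 0.46, MMUT from 0.29 to 0.35, MMADHC from -0.22 to -0.18 and UXS1 from -0.92 to -0.85. TCN2, LMBRD1, MMUT, MMADHC and UXS1 kept their call in each of the 18, and MMACHC and MTRR were called in none. The CD320 call was lost with DESeq2 (-0.13), library size only (-0.11), upper-quartile scaling (-0.10), a mean of at least 5 CPM (-0.11), log2(TPM + 1) (-0.13), log2(TPM + 1) without filter (-0.13) and log2(TPM + 0.1) (-0.13), with adjusted p from 0.0594 to 0.179; with a library left out it ran from -0.18 to -0.0962, and the cause was not tested. MTR ran from -0.14 to -0.0581 with a library left out. All genes called higher numbered 2855 to 4243 and lower 2661 to 3896.

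With a mean of at least 5 CPM, which tests fewer genes, the lysosome and adenosyl list had 3 called higher in place of 5 and a median of -0.05. The uptake list then had 3 genes tested, without AMN, and 1 called higher, where the main fit called AMN and LRP1. With log2(TPM + 1) and log2(TPM + 0.1) after filtering it likewise had 1 of 3 called higher. The propionate list had 3 to 5 called higher in place of 8 with DESeq2, TPM or without UXS1 KO replicate 2. The lysosome and adenosyl list had 1 or none called lower in place of 3 without UXS1 KO replicate 1 and with log2(TPM + 1) without filter. With TPM 1 methionine gene was called higher, where the main fit called AHCYL2 and CTH. ASGR1 and MAT1A, which passed the filter of the main fit through the UXS1 KO libraries only, are not counted among its calls here. Folate genes called higher were 1 in place of 0 with a mean of at least 5 CPM and with upper-quartile scaling. Deviations of same-numbered libraries correlated at 0.00550, 0.0157 and 0.0340, so the numbers are not taken to pair them. With the replicate block 4002 genes were higher and 3896 lower, and no member's call changed (CD320 adjusted p = 0.00952, MTR adjusted p = 0.104). Neutrophil markers called higher numbered 1 to 7 and their median ran from 0.49 to 1.63, with CRISP3 and ELANE included wherever they were tested. Secretory markers called higher numbered 8 to 13 and their median ran from 0.86 to 1.27, with LYZ included wherever it was tested. Low counts limit AMN, ASGR1, CRISP3 and ELANE.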

Other observations

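MTAP, the first enzyme of methionine salvage, whose gene is deleted in A549 together with CDKN2A, had 2, 6 and 4 counts in UXS1 KO libraries and 9, 8 and 7 counts in CTRL libraries and was not tested. Of the 4 listed salvage genes after it, ENOPH1 stood at 42.8 CPM in UXS1 KO and 49.96 CPM in CTRL and MRI1 at 13.9 and 16.7 CPM in the same order, and both fell (log2 fold changes -0.22 and -0.26, edgeR adjusted p = 7.7e-04 and 0.00512). APIP, at 32.3 CPM in UXS1 KO and 29.8 CPM in CTRL (log2 fold change 0.12, edgeR adjusted p = 0.107), and ADI1, at 104 and 109 CPM in the same order (-0.06, edgeR adjusted p = 0.201), were not called.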
